A study of Mus musculus with 4 samples.

Results

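Elobl, Clec16a, Hexdc and Spin1 are 4 genes whose transcripts took up a large share of the reads in mouse oocytes, and they were chosen by their large estimated read totals from the 17374 genes listed in the study's transcript table. Every transcript that the table gives under the gene identifier of a member was counted to it, which were 2 of Elobl (217066), 9 of Clec16a (74374), 6 of Hexdc (238023, also named Hexd) and 7 of Spin1 (20729). No read total was set as a limit: of the 5 genes with the largest mean read totals, Ldhb and Ubb are not members, and Elobl stood at rank 14 of that list. The libraries came from pooled germinal vesicle stage oocytes without hormone priming, isolated on postnatal day 16 from female F1 hybrids of C57BL/6 and DBA/2J, kept in meiotic arrest by milrinone during culture and freed of the zona before lysis. The 2 control libraries came from oocytes that were not irradiated, and the 2 irradiated libraries from oocytes collected 24 h after 5 Gy of γ-rays from Cesium-137. The pools comprised 59 oocytes for each condition, and the 2 libraries of a condition came from independent biological experiments. The comparison asks which transcripts differ a day after irradiation of oocytes that are still transcriptionally active.

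A growing oocyte fills its cytoplasm with maternal mRNA, much of which is stored for use after transcription stops. Spin1 encodes spindlin 1, a Tudor-domain protein that reads trimethylated lysine on histone H3 and is abundant in oocytes, where it takes part in the resumption of meiosis. Clec16a encodes a membrane-associated E3 ubiquitin ligase that acts in mitophagy and endosomal traffic together with the ligase encoded by Rnf41. Hexdc encodes hexosaminidase D, a glycosidase of the nucleus and cytoplasm that removes N-acetylated amino sugars. Elobl is named for its likeness to Elob, whose product elongin B joins elongin C as the adaptor between cullin scaffolds and substrate receptors of ubiquitin ligases.

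On GRCm38, Elobl lies on the minus strand of chromosome 11 at chr11:88964658-88966931. Hexdc lies on the plus strand of the same chromosome at chr11:121204353-121222657. Clec16a spans chr16:10545309-10744878 and Spin1 chr13:51097934-51152562, both on the plus strand. Elobl has a near relative in the genome, and the first 150 coding bases of its longest GENCODE transcript are shown beside those of Elob on chromosome 17, because reads of the members can be told from those of relatives only where the letters differ. Capitals mark the 27 positions that differ, and there is no gap in this stretch.
Elobl: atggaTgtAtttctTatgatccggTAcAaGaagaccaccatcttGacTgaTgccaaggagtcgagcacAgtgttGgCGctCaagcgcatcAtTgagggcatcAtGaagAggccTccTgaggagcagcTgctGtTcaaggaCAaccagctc
Elob: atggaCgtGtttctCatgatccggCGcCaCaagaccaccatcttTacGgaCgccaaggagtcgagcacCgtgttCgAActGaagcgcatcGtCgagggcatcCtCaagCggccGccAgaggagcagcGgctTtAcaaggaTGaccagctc
Over the whole coding sequences, of 483 and 354 bases, 57.1% of 483 aligned columns were identical, 129 columns were gaps and the longest run without a difference was 21 bases. That is shorter than the 100-bp reads of these libraries.

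The annotated start regions differ in base composition between members, and between starts of a member, and the few printed show that range. Each is 300 bases from RefSeq (GRCm38.p6), most of them before an annotated start, and capitals mark the motifs CANNTG, the E-box letters, and TATAAA, searched on both strands. Elobl, at chr11:88966882-88967181 on the minus strand, has no CpG, a GC content of 43.7% and 2 CANNTG matches.
Elobl: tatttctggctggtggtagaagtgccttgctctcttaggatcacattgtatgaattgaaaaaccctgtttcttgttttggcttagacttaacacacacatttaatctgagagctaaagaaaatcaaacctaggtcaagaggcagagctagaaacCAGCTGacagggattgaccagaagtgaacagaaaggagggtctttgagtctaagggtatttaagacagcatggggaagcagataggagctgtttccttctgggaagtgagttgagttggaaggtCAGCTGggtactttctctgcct
Hexdc has 2 listed starts on the plus strand. The upstream one, chr11:121204183-121204482, has 16 CpG and 64.7% GC, and the downstream one, chr11:121207393-121207692, has no CpG, 38.7% GC, 3 CANNTG matches and 4 matches of TATAAA or its reverse complement, of which a forward and a reverse match overlap.
Hexdc upstream: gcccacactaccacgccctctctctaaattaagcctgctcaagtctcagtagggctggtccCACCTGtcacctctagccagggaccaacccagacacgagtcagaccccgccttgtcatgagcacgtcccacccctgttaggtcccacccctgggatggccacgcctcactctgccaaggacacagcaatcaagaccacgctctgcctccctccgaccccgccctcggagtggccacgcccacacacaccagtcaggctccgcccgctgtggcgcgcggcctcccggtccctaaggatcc
Hexdc downstream: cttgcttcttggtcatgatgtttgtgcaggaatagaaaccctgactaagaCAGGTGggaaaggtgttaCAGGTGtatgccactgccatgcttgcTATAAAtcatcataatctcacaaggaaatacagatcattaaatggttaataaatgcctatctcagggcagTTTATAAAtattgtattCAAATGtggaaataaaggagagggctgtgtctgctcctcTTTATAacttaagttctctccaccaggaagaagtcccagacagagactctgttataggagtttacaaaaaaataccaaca
Spin1 has 3 listed starts, and the first, chr13:51100630-51100929 on the plus strand, has 51 CpG and 82.7% GC, above 99.6% of all listed promoters in GC content. The others have 36 CpG with 72% GC and 2 CpG with 50.7% GC.
Spin1: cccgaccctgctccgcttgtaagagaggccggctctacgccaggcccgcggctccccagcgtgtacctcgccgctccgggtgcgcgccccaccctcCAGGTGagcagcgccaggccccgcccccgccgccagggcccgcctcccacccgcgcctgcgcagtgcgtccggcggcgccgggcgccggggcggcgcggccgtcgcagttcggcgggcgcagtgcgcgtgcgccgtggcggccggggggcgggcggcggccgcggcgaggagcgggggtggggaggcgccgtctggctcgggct
The Clec16a window, chr16:10545089-10545388, has 25 CpG, 55% GC and neither motif. Among all 32851 listed promoters of this length the median was 52.7% GC and 7 CpG, and 72.3% held CANNTG and 13.6% TATAAA. The deposited table does not tie its transcripts to a start, so which start was used was not measured.

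The libraries held between 33349466 and 37232818 estimated read counts. Of 15 oocyte markers, 14 had a mean above 10 TPM (a level corrected for transcript length, with equal totals over all libraries), with Zp3 highest. Granulosa and cumulus markers summed to between 16.7 and 22.3 TPM per library over a list of 12, of which 8 were listed. The highest means were those of Cyp19a1 (9.53 TPM), Nr5a2 (4.93 TPM) and Fshr (2.25 TPM), while Amh, Amhr2, Foxl2 and Fst were not listed. Of 12 theca, stromal and blood markers 5 were listed, the highest being Pecam1 at 4.65 TPM. Irradiated library 2 stood apart: 162 genes had a mean of at least 1000 TPM, and the median of their log2 differences from the mean of the controls was -0.66 in irradiated library 2 and -0.03 in irradiated library 1, against 0.02 and 0.01 for all 12569 genes tested. The gene total of each member is therefore compared with and without that library. The pooled libraries measure the RNA of many oocytes at once, so that less of a transcript per oocyte and fewer oocytes that hold it cannot be told apart.

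Elobl was the member with the highest level. It stood at 21794 and 21600 TPM in control libraries 1 and 2 and at 22922 and 16442 TPM in irradiated libraries 1 and 2. Only irradiated library 2 was low, and the other 3 lay close together. The mean of 20690 ± 2891 TPM (SD, n = 4) put Elobl at rank 3 of 17374 genes, between Ubb (24852 TPM), a ubiquitin gene, and Dppa3 (20398 TPM), which encodes the maternal factor Stella. In single libraries it ranked 4 in both controls, 3 in irradiated library 1 and 5 in irradiated library 2, and Dppa3 was above it in both controls.

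Clec16a came next. Its values were 13181 and 12036 TPM in the controls and 14814 and 19207 TPM in the irradiated libraries. Both irradiated libraries were above both controls on this scale, and irradiated library 2 was the highest. Its mean of 14809 ± 3145 TPM (SD, n = 4) gave rank 7, between Dppa5a (15627 TPM) and Pttg1 (13112 TPM), the gene of securin. In single libraries its ranks were 7 and 9 in the controls and 7 and 4 in the irradiated libraries, with Dppa5a below it in irradiated library 2 and Pttg1 above it in control library 2.

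Hexdc had the same order of libraries. It stood at 9719 TPM in control library 1, 9718 in control library 2, 11436 in irradiated library 1 and 16423 in irradiated library 2. Its mean of 11824 ± 3171 TPM (SD, n = 4) gave rank 10, between the zona pellucida gene Zp3 (12464 TPM) and Skp1 (11474 TPM), which encodes a subunit of SCF ubiquitin ligases. That rank pools conditions whose means differ: in single libraries Hexdc ranked 15 and 16 in the controls, where Skp1 was above it, and 11 and 6 in the irradiated libraries.

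Spin1 had the lowest level of the 4 genes. It stood at 8154 and 7921 TPM in the controls and at 8189 and 5173 TPM in the irradiated libraries, so that, as for Elobl, irradiated library 2 alone was low. The mean of 7360 ± 1462 TPM (SD, n = 4) gave rank 20, between Ftdc1 (8544 TPM) and Omt2b (6607 TPM). It ranked 19 in both controls and 20 and 22 in the irradiated libraries, and Omt2b was above it in irradiated library 2.

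**Figure D1:**
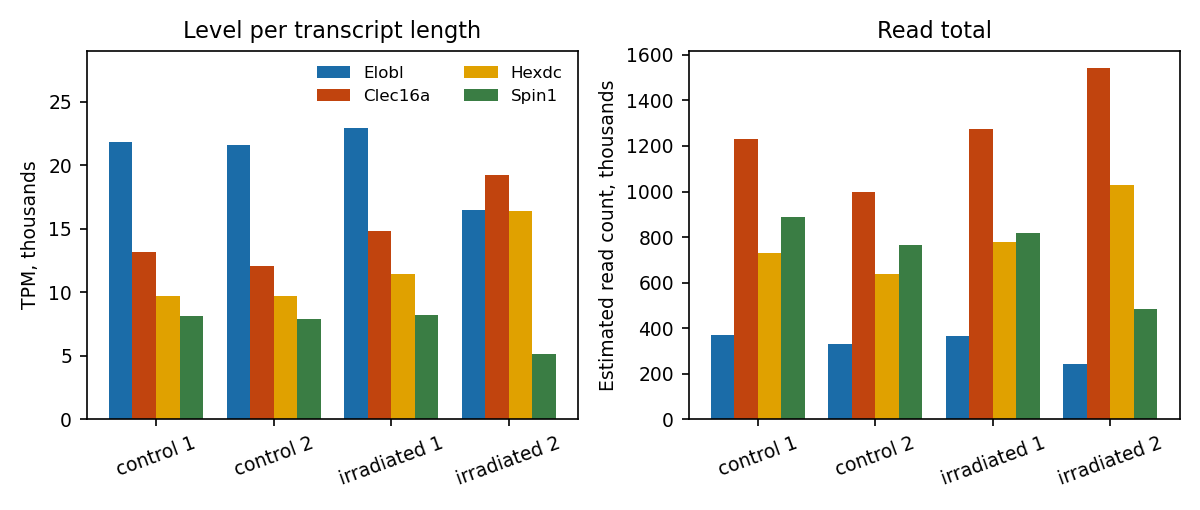
Level in TPM (left) and estimated read count (right), both in units of 1000, of the 4 genes in each of the 4 libraries; each bar is 1 library. Elobl led in TPM in 3 of 4 libraries, while Clec16a had the largest read total in each library.

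In the order of levels, neighbours were not always apart. Elobl was above Clec16a in 3 of 4 libraries and below it in irradiated library 2, where the ratio was 0.856. The ratio of Elobl to Hexdc was 2.00 to 2.24 in the first 3 libraries and 1.00 in irradiated library 2. Clec16a was above Hexdc in each library, by 1.17 to 1.36 times, but the ranges of their values over the libraries overlapped. Hexdc was above Spin1 by 1.19 to 1.40 times in the first 3 libraries and 3.17 times in irradiated library 2, and Elobl was 2.67 to 3.18 times as high as Spin1. These levels are a description, since the genes were chosen for their reads, and SDs pool both conditions.

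Read totals gave another order, because a longer transcript yields more reads. Clec16a had the largest read total of all genes in each library, with 1231770 and 999313 counts in the controls and 1273012 and 1540772 in the irradiated libraries. Spin1 had 888247, 766114, 819997 and 484012 counts in control 1, control 2, irradiated 1 and irradiated 2. Hexdc had 728654, 636654, 776642 and 1030695 counts in that order. Elobl, whose main transcript is short, had 369907, 331652, 363890 and 245011. The 4 genes held 8.64%, 8.20%, 9.15% and 9.56% of all counts in the same order of libraries, and Clec16a alone held from 3.00 to 4.46%.

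The relatives and partners of the members were far less abundant. Of 8 genes of the spindlin family and its docking protein, 4 were listed, and beside Spin1 these were Spindoc (0.593 TPM), which binds spindlin 1, Spin2c (0.223 TPM) and Spin4 (0.0475 TPM). Of 8 genes for hexosaminidases and related enzymes, all were listed and none of them was above 12.8 TPM, the level of Ogt, which adds N-acetylglucosamine to proteins. Glb1 (6.20 TPM), a lysosomal galactosidase, Oga (4.15 TPM), which removes the sugar that Ogt adds, and Hexa (1.41 TPM), a lysosomal hexosaminidase subunit, followed. Among the partners of CLEC16A described here were the retromer genes Vps26a (280 TPM), Vps29 (93.3 TPM) and Vps35 (48.4 TPM), while Rnf41, whose product CLEC16A binds, had 2.45 TPM. Among 12 elongin and cullin ligase subunits, the elongin C gene Eloc led with 2278 TPM, ahead of Rbx1 (391 TPM), which encodes a RING subunit, Elob (278 TPM) and the substrate receptor gene Klhdc2 (204 TPM).

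**Figure D2:**
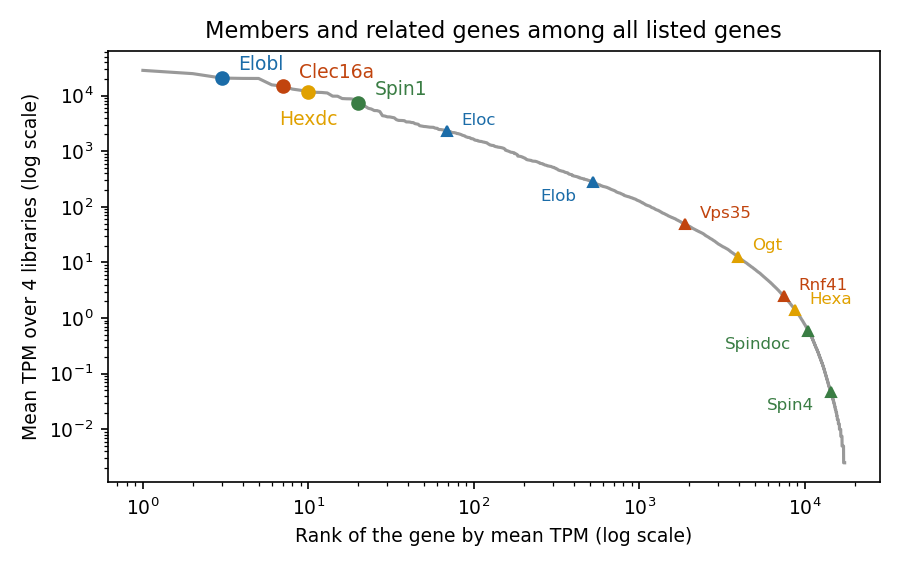
Mean TPM over 4 libraries against the rank of each listed gene by mean TPM, both on log scales; circles are the 4 genes and triangles, in the colour of the gene they relate to, are named relatives and partners. Spin1 stood at rank 20 while Spin4 had 0.0475 TPM, and Eloc at 2278 TPM was the relative closest in level.

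The counts of Clec16a, Hexdc and Elobl fell mostly on transcripts with the XM_ prefix, which RefSeq predicts by computation, and those of Spin1 on a known transcript with the NM_ prefix. Over all genes with a mean of at least 10 TPM, 307 of 4373 (7.02%) had over 90% of their counts on predicted transcripts, and among genes of at least 1000 TPM these were 9 of 162 (5.56%), including 3 of the members.

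All 9 listed transcripts of Clec16a were predicted. XM_030249312.1 held 85.6%, 84.6%, 84.1% and 86.3% of the gene's counts in control 1, control 2, irradiated 1 and irradiated 2, and XM_017317148.2 held 13.8%, 14.7%, 15.0% and 13.1%. The other 7 together held from 0.670 to 0.831%. The ratio of counts to FPKM, which gives the effective length, implied lengths of 3592 and 3640 bases for the 2 main transcripts. The longest of 11 GENCODE transcripts of Clec16a has 6244 bases and 24 exons, and the coding one nearest in length has 3730 bases and 21 exons. The implied lengths include an offset of 178.2 bases, sought in 1834 known transcripts with a matched GENCODE transcript. It is the median of the 42.3% of these that lay within 20 bases of the most frequent offset. The others lay further off, so the implied lengths are approximate and identify no transcript.

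Hexdc was the member whose counts were most divided. XM_006533266.2 held 69.5%, 62.5%, 63.2% and 58.8% of its counts in control 1, control 2, irradiated 1 and irradiated 2, and XM_011249002.2 held 27.9%, 35.0%, 34.3% and 38.9%. The shares of both conditions overlapped, with control 2 next to irradiated 1. XM_030245982.1 held most of the rest, which together amounted to at most 2.60%. The known transcript NM_001001333.2 had between 20.6 and 58.2 counts in a library, or from 0.00324 to 0.00565% of the gene. Implied lengths were 3163 bases for the first, 2519 for the second and 2160 for the known one, and the longest coding GENCODE transcript has 2378 bases.

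Elobl had 2 listed transcripts. The predicted XM_030245855.1 held 92.5%, 94.1%, 93.4% and 94.7% and the known NM_001360780.1 held 7.45%, 5.87%, 6.63% and 5.34% in the same order. Implied lengths were 819 and 704 bases, which are also the lengths of 2 GENCODE transcripts of Elobl that carry the same coding length of 483 bases. Spin1 rested on 1 transcript, NM_011462.3, with 99.7%, 99.7%, 99.7% and 99.4% of its counts, and the other 6 held at most 0.572% together.

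**Figure D3:**
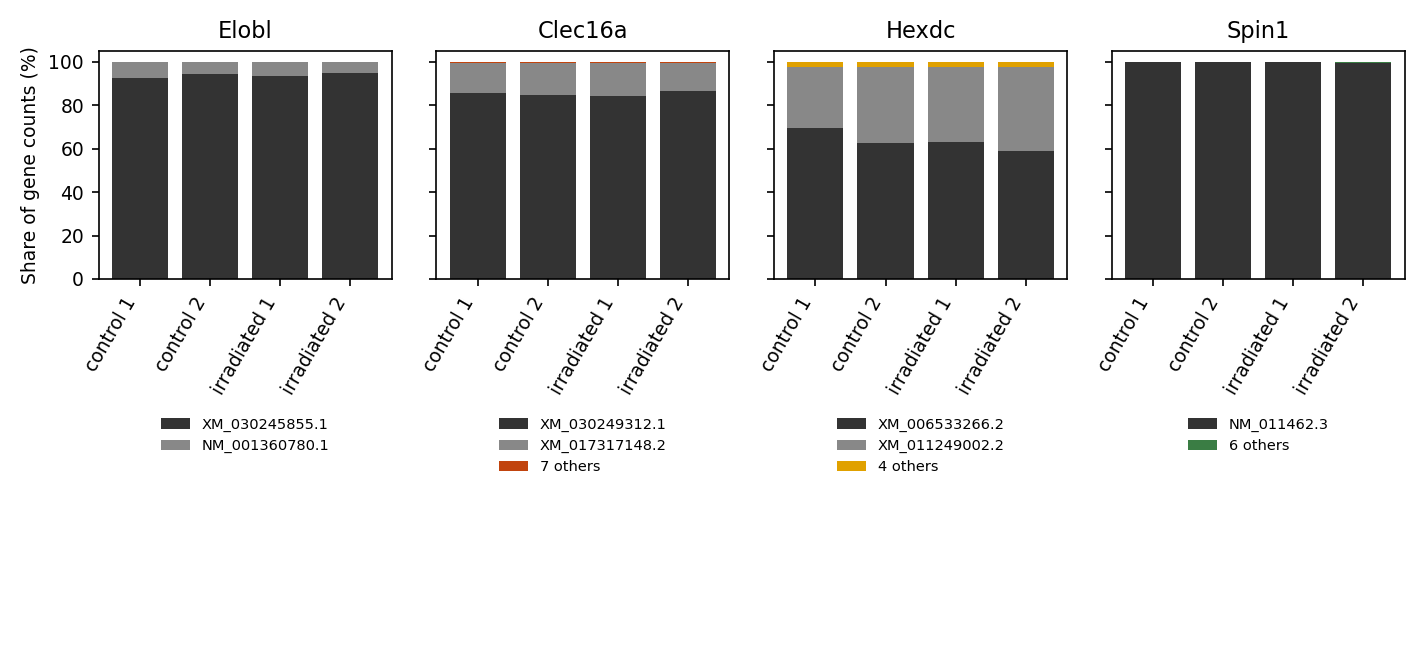
Share of each gene's estimated counts (in percent) on its transcripts in each library; dark and mid grey are transcripts with at least 5% of the gene's counts in any library, coloured tops are all others together. Spin1 rested on 1 transcript, and Hexdc was divided mainly between a pair, with 58.8 to 69.5% on the first.

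Some letters of the members also occur in transcripts of other genes. In windows of 31 bases, none of the longest coding Clec16a transcript in GENCODE was found in another gene, against 5.97% of Spin1, 9.84% of Hexdc and 19.4% of Elobl. The sequences of the predicted RefSeq transcripts that held most counts of Clec16a, Hexdc and Elobl were not available. These were not searched, nor was genomic sequence outside the GENCODE transcripts. The longest shared stretch of Hexdc, of 223 bases, was with Ogfod3, which overlaps its start on the other strand and had 25.6 to 49.8 TPM. That of Elobl, of 112 bases, was with Coil, at 2.54 to 3.20 TPM, and equally with 2210409E12Rik, which is not listed. That of Spin1, of 116 bases, was with Gm7787, which is not listed. The antisense gene Gm15558 overlaps Clec16a and is not listed either. How the authors' counting used strand is not given in the sources used here, so reads of overlapping genes could not be told apart in those stretches.

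None of the 4 members passed the test for a difference between irradiated and control oocytes. The test was edgeR's quasi-likelihood test on gene totals. A gene was called where its log2 fold change exceeded 2 in either direction at a Benjamini-Hochberg adjusted p under 0.05. These limits are those of the study's methods, which name both edgeR and DESeq2, and the study reported its differences for transcripts. Of all 12569 genes tested, 1 was called (0.00796%), Fermt1, named here because it was the only one, and 744 (5.92%) had an unadjusted p under 0.05, of which 582 (4.63% of all) were higher in irradiated oocytes. None of these was a member. DESeq2, run without the low-count filter on 17374 genes, called 4, again with no member. In 2776 of the genes (22.1%) both irradiated libraries were above both controls, as in 2 of the 4 members, and in 2496 (19.9%) both were below, as in none of the members.

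Clec16a had 1262455 and 1083060 normalized counts in the controls and 1353801 and 1326759 in the irradiated libraries. The groups did not overlap, but the controls differed from each other by 0.22 on the log2 scale. The log2 fold change between conditions was 0.19 (SE 0.47, 95% interval -0.92 to 1.31, adjusted p = 0.894 by edgeR). It was 0.21 without irradiated library 2 and 0.08 without control library 2.

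Hexdc had 746805 and 690008 normalized counts in the controls and 825930 and 887532 in the irradiated libraries, again without overlap. Its log2 fold change was 0.25 (SE 0.42, 95% interval -0.75 to 1.26, adjusted p = 0.850 by edgeR), and 0.20 without irradiated library 2. On log2(TPM + 1), where the median change of the 9429 tested genes with a mean of at least 1 TPM was 0.18, the changes of Clec16a and Hexdc were 0.42 and 0.50, with unadjusted p of 0.0244 and 0.0269 and an adjusted p of 0.745 for both by limma.

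Elobl had 379122 and 359446 normalized counts in the controls, 386983 in irradiated library 1 and 210979 in irradiated library 2. Irradiated library 1 was above both controls and irradiated library 2 far below them. The log2 fold change was -0.30 (SE 0.42, 95% interval -1.30 to 0.69, adjusted p = 0.819 by edgeR). It rested on 1 library: without irradiated library 2 the value turned to 0.07, and without irradiated library 1 it was -0.82 with an adjusted p of 9.28e-07 by edgeR, where the lone irradiated library was assumed to vary like the controls.

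Spin1 had 910374 and 830317 normalized counts in the controls, 872036 in irradiated library 1 and 416783 in irradiated library 2. Irradiated library 1 lay between the controls, and irradiated library 2 was lower by 1.06 on the log2 scale than the mean of the controls. The log2 fold change was -0.43 (SE 0.51, 95% interval -1.63 to 0.76, adjusted p = 0.794 by edgeR). Without irradiated library 2 it was 0.0035, and without irradiated library 1 it was -1.07 with an adjusted p of 9.81e-09 by edgeR, under the same assumption. For each of the 4 gene totals, the interval excludes a log2 change of 2 in size. The study applied that limit to transcripts. These intervals rest on 2 libraries a condition, of which irradiated library 2 stood apart.

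**Figure D4:**
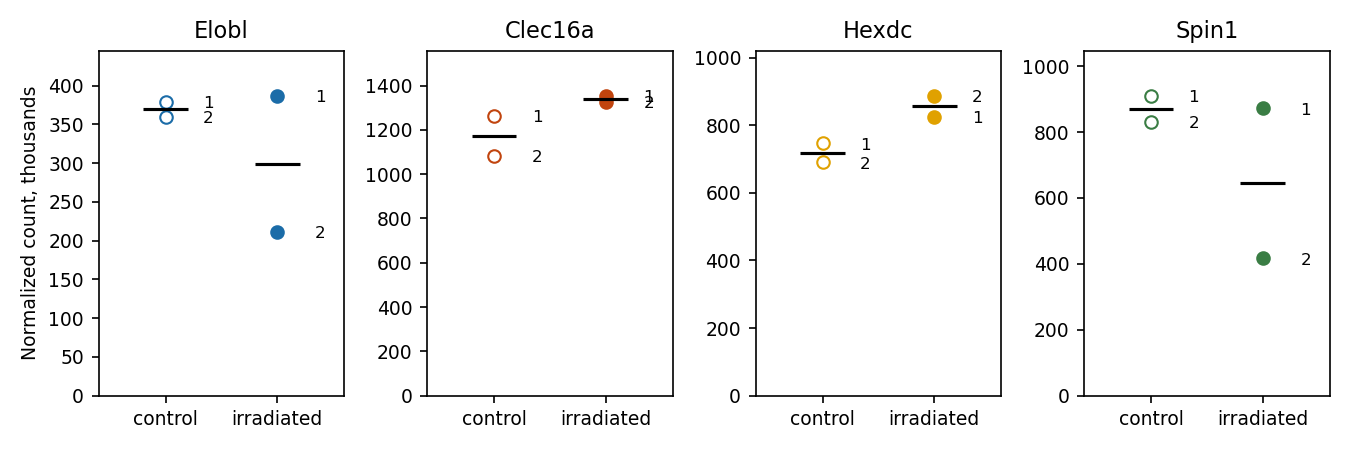
Normalized counts (in units of 1000) of each gene in the control (open circles) and irradiated libraries (filled circles), numbered by library, with a line at the mean of each pair. Irradiated library 2 was low for Elobl and Spin1, whereas for Clec16a and Hexdc both irradiated libraries were above both controls.

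At the level of single transcripts, no member passed the test either. Of 26645 transcripts tested, edgeR called 0 (1306 at an unadjusted p under 0.05, 4.90%). DESeq2, run without the low-count filter on 45505 transcripts, called 248. On simulated counts of the 26645 filtered transcripts, DESeq2 made 80 false calls and edgeR 5. All simulated libraries shared the same spread, so this cannot tell how many of the 248 calls are false. Both irradiated libraries were above both controls for 4 of the 7 member transcripts that held at least 5% of their gene, namely both main transcripts of Clec16a and both of Hexdc, against 18.7% of all transcripts. The largest log2 fold change in size among these 7 was that of XM_011249002.2 of Hexdc, which had 206720 and 240092 normalized counts in the controls and 282141 and 350327 in the irradiated libraries, a log2 fold change of 0.50 (SE 0.27, adjusted p = 1.00 and unadjusted p = 0.141 by edgeR). Without irradiated library 2 it was 0.34. The unadjusted p of this transcript was 0.0112 by DESeq2 (adjusted p = 0.484) and 0.0364 by edgeR's exact test (adjusted p = 0.926). Its companion XM_006533266.2 had a log2 fold change of 0.15 (SE 0.29, adjusted p = 1.00 by edgeR). The test of isoform usage called 16 of 6323 genes (0.253%), and 387 (6.12%) had an unadjusted p under 0.05. None of them was a member, and each member had an adjusted p of 1.00 by edgeR.

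In the partner lists, edgeR called 0 genes. An unadjusted p under 0.05 was found for 1 of 12 elongin and cullin ligase genes, 1 of 6 hexosaminidase genes and 0 of 10 CLEC16A partners tested, against 5.92% of all genes. Of 12 elongin and cullin ligase genes tested, 4 had both irradiated libraries above and 6 had both below the controls, where 22.1% and 19.9% of all genes did, with a median log2 fold change of -0.10 against 0.01 for all genes. Eloc had 74263 and 73293 normalized counts in the controls and 70225 and 23770 in the irradiated libraries, so that it too was low mainly in irradiated library 2. Klhdc3, a substrate receptor gene, had a log2 fold change of 0.68 (unadjusted p = 0.0371, adjusted p = 0.708 by edgeR). Of 10 CLEC16A partners tested, 2 were above and 2 below without overlap, near the 22.1% and 19.9% of all genes, with a median of -0.09, and Rnf41 had a log2 fold change of 0.42 (unadjusted p = 0.0507, adjusted p = 0.708 by edgeR). Of 6 hexosaminidase genes tested, 2 were above without overlap and none below, beside the same 22.1% and 19.9% of all genes, with a median of 0.10. Among them Gm2a, which encodes an activator protein for hexosaminidase A, had 0.430 TPM and a log2 fold change of 0.88 (unadjusted p = 0.0438, adjusted p = 0.708 by edgeR). Of the spindlin list only Spin1 and Spindoc had enough counts to be tested.

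The members fell into 2 pairs by their pattern over the libraries. The root mean square difference of centred log2 normalized counts over the 4 libraries was 0.0668 between Clec16a and Hexdc and 0.106 between Elobl and Spin1, and from 0.415 to 0.569 for the 4 other pairings. In irradiated library 2 the centred values were -0.62 for Elobl, -0.80 for Spin1, 0.08 for Clec16a and 0.18 for Hexdc, and in the other 3 libraries the 4 genes lay between -0.21 and 0.33. Among 4372 other genes of at least 10 TPM, the nearest to Clec16a were Tgfa (0.0133) and Intu (0.0255), and the nearest to Hexdc were Eif1 (0.0134) and Lrrc59 (0.0135). The nearest to Elobl were Ppa1 (0.0166) and Tbc1d15 (0.0168), and the nearest to Spin1 were Ppia (0.0307) and Psma2 (0.0321). These likenesses describe 4 values per gene.

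Against the other abundant genes, Clec16a and Hexdc were the members that stood out. In irradiated library 2, 150 of the 162 genes with at least 1000 TPM were lower than the mean of the controls, and the log2 differences of Spin1 (-1.06) and Elobl (-0.81) ranked 128 and 110 from the top. Hexdc (0.31) ranked 3 and Clec16a (0.18) ranked 5. In irradiated library 1 the differences were 0.0043 for Spin1, 0.07 for Elobl, 0.20 for Hexdc and 0.21 for Clec16a. Of the 162 genes, 64 had both irradiated libraries below both controls and 7 (4.32%) had both above. Among the 9 genes with over 90% of counts on predicted transcripts 5 had both above and 1 both below, and among the other 153 these were 2 and 63. The 5 were Clec16a, Hexdc, Hddc3, Dnajc14 and Iars2, so the pattern was not particular to members. Dnajc14 (0.28) ranked 4 in irradiated library 2, between Hexdc and Clec16a. The split by predicted transcripts was made after the values were seen, and it was not tested.

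**Figure D5:**
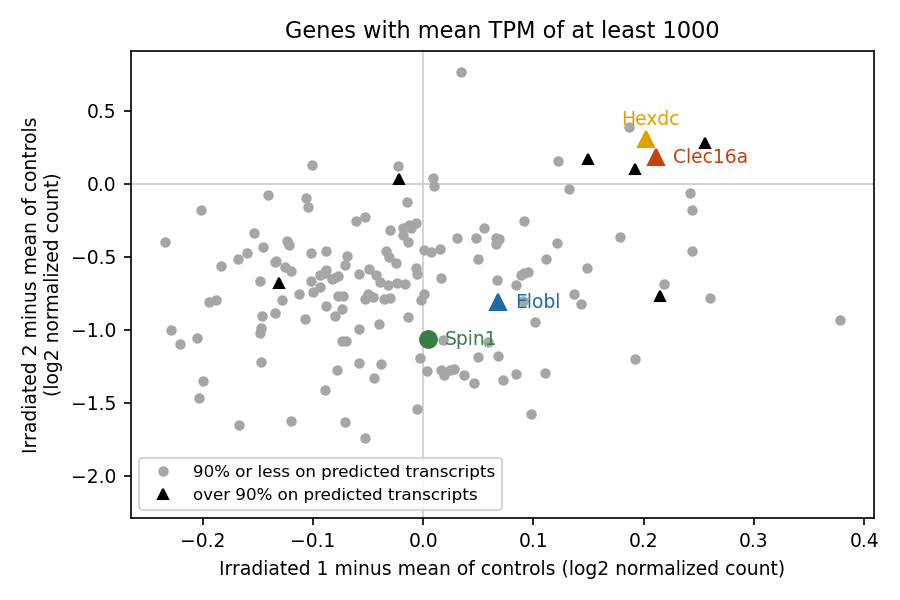
Log2 normalized count relative to the mean of the controls in irradiated library 1 (horizontal) and irradiated library 2 (vertical) for the 162 genes with a mean of at least 1000 TPM; triangles have over 90% of their counts on predicted transcripts. Most genes lay below 0 on the vertical axis, with a median of -0.66, while Clec16a and Hexdc lay above 0 on both axes.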

How the data were processed

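RNA-seq of germinal vesicle stage oocytes was analysed in 2 control and 2 irradiated libraries, grouped by their titles. The authors trimmed paired-end 100-bp reads and aligned them with Bowtie2 to GRCm38. They deposited, per RefSeq transcript and library, estimated counts that are not scaled for library size. Their processing notes also name HISAT2 and RSEM, without versions. The authors also deposited TPM values, scaled to 1 total per library after correction for length, and FPKM values, used here only for effective lengths. Of the deposited columns, 6 of averages were not used.

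Counts were summed per gene ID, rounded and passed to the quasi-likelihood test of edgeR (version 4.0.16, under R version 4.3.3) after filterByExpr at a minimum of 10 counts and TMM scaling, with p-values adjusted by Benjamini-Hochberg over all features. Normalized counts are counts divided by library size times TMM factor (0.923, 0.975, 0.937 and 1.19) and scaled to the mean depth. Isoform usage was tested with diffSpliceDGE and Simes' method. DESeq2 1.42.0 and limma 3.58.1 served as alternatives. On the deposited counts, DESeq2 was run without filterByExpr, on 17374 genes and 45505 transcripts. On simulated counts with 200 genes changed by 3 log2 units, edgeR recovered 100% of genes among 12569 with 0 false calls. It recovered 81.0% of changed transcripts among 26645, with 5 false calls, and 40.5% of genes with changed isoform usage among 5655. DESeq2 recovered 100% of genes with 0 false calls and 90.5% of transcripts with 80 false calls. All simulated libraries shared the same spread, none stood apart, and the change exceeded the limit for a call. The simulation therefore cannot tell whether changes as small as those of the members would be found. With 2 libraries against 2, an exact permutation test cannot go below p = 0.333. At counts of this size the spread between libraries, not counting error, sets the precision. Symbols and loci came from RefSeq (GRCm38.p6), where 17323 of 17374 gene IDs matched, and transcript sequences from GENCODE. Python 3.11.15 with matplotlib 3.10.9 drew the figures. Named genes were the members, up to 4 genes with the highest TPM and those passing a test in each partner list, the neighbours in mean TPM and the 2 nearest in pattern; others were named after their values were seen. Some genes of the lists are not reported here. The members and the lists were chosen with earlier results of these data known.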

Additional observations from a re-analysis of the deposited data

How the results depend on the processing

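For gene totals, the 1 call became 0 with library size only, 4 with DESeq2, 10 with edgeR's exact test, 3 without a low-count filter, 0 with limma on log2(TPM + 1), on log2(TPM + 0.1) or without a filter, and 16 to 84 when 1 library was left out, the 84 without irradiated replicate 1. For transcripts, the count of 0 became 248 with DESeq2, run on 45505 transcripts without a low-count filter, and 247 with edgeR's exact test. For isoform usage, the 16 calls became 58 with the gene-level F test, 0 with limma's diffSplice, 8 without a low-count filter and 1 to 29 when 1 library was left out. The cause of these moves was not tested. With the replicate number as a block, gene totals gave 7 calls, transcripts 0 and isoform usage 3, and no member was called. The deviations of control 1 and irradiated 1 correlated at 0.059 over genes, and nothing in the labels pairs the libraries beyond a shared number. In all, 5 log2 fold changes changed sign, each without irradiated replicate 2. When 1 library was left out they ranged from -0.82 to 0.068 for the total of Elobl, -1.07 to 0.0035 for that of Spin1, -0.77 to 0.073 for XM_030245855.1, -1.11 to 0.061 for NM_001360780.1 and -1.04 to 0.0076 for NM_011462.3, the lowest without irradiated replicate 1. Clec16a kept its direction in the 14 alternatives (0.08 to 0.42), as did Hexdc (0.19 to 0.50), and no member passed both limits in any. With library size only, the median log2 fold change of the 12569 genes tested was 0.15. Of the other values of single genes, transcripts or shares, 190 stayed the same and 3 shares moved when taken from TPM. Fold changes counted as the same at an unchanged direction and side of the threshold, and isoform tests at an unchanged side. Mean levels and shares counted as the same when they moved by less than their SD over the libraries. The limits are 2 libraries a condition, 1 of which stood apart, and transcripts whose counts depend on how reads were shared out.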
